A study of Caenorhabditis elegans with 2 samples.

Results

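The genes described here act on collagen after it is made. They were chosen by function: hsp-3 and hsp-4 (chaperones of the endoplasmic reticulum, ER), pdi-2, dpy-18 and phy-2 (prolyl hydroxylation), dpy-11 (thiol chemistry), bli-4 (cleavage) and bli-3 (crosslinking), 8 of 19973 nuclear protein-coding genes in the annotation. Each gene was given the peaks of the transcription factor ELT-1 with a summit in its gene window, which ran from a point 3000 bp upstream of the 5′ end through to the 3′ end. The data came from chromatin immunoprecipitation and sequencing (ChIP-seq) on whole mixed-stage hermaphrodite embryos of Caenorhabditis elegans strain OP354, genotype unc-119(tm4063) III; wgIs354. Its integrated transgene makes ELT-1 with a C-terminal GFP-FLAG tag. According to the sample descriptions, an antibody to GFP pulled the protein down, although a separate label names elt-1 as the antibody. The single group held 2 biological replicates, both with the same transgene and the same unc-119 allele, and no group without the transgene was analysed here. So no test between conditions was possible, and each value below is a description, with the read depth behind it unknown. Whole embryos were used, so binding in fewer cells and weaker binding in each cell cannot be told apart.

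ELT-1 is a GATA factor that gives embryonic cells their epidermal fate. The epidermis secretes the cuticle, an extracellular coat made largely of collagens. Collagen chains enter the ER, where chaperones of the HSP70 class bind them, protein disulfide isomerase joins their cysteines, and prolyl 4-hydroxylase, an enzyme built from catalytic α subunits and protein disulfide isomerase, stabilises the triple helix. Secreted chains are then trimmed by proteases and linked through tyrosines with peroxide made by a dual oxidase. Worms with defects in these steps are often short and fat (Dpy) or blistered (Bli).

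A peak that passed the submitters' irreproducible discovery rate (IDR) threshold lay in the windows of 2 of the 8 genes, hsp-3 and pdi-2. Both serve in ER folding, and both lie on the X chromosome. The share among all protein-coding genes was 7.2% (1438 genes) over the genome, 11.0% on X and 6.59% on the autosomes, and 0 of the 6 autosomal members had such a peak. No test was made of this difference. Window length matters for such a count: the members' windows ran from 5382 bp (pdi-2) to 17457 bp (bli-4), against a median of 5027 bp over all genes. Among genes with a window within 25% of the length of hsp-3's, 6.88% had an IDR summit, and this was 6.10% for pdi-2 and 15.5% for bli-4. The windows of hsp-3 and pdi-2 held 3 IDR summits, 2 of them at hsp-3. The IDR list was made from the relaxed lists of the replicates and the pool and carries the pooled signal, so the replicate ranks given below are not independent of it. The 3 summits had the same ranks in the IDR list as in the pooled list (28, 1260 and 207), so at these ranks the list followed pooled signal. Passing the threshold therefore does not by itself show that each replicate ranked a peak highly.

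**Figure D1:**
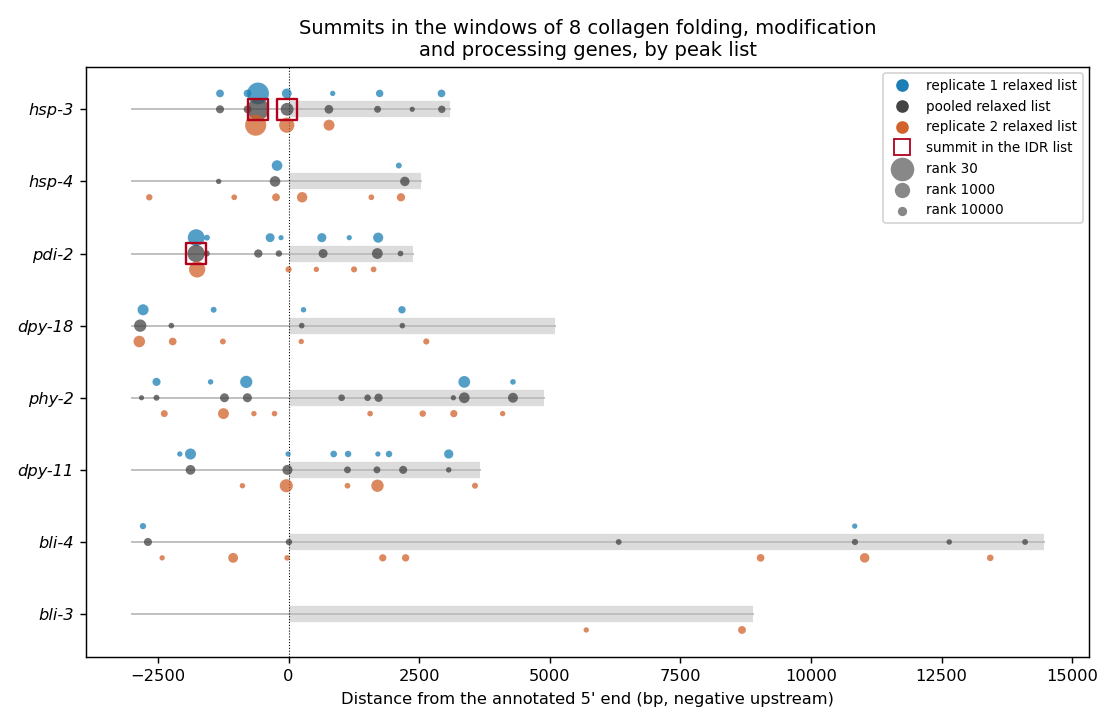
Summits of ELT-1 peaks by distance from each gene's annotated 5′ end (bp, negative upstream), with the gene as a grey bar, replicate 1 above, the pool on and replicate 2 below each line, and larger points for better ranks. Red squares mark the 3 summits of the IDR list, at 583 and 27 bp upstream of hsp-3 and 1770 bp upstream of pdi-2, while bli-3 has points from replicate 2 only.

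The gene hsp-3 (WBGene00002007, chrX:6089028-6092124, minus strand) encodes a worm counterpart of BiP, the main HSP70 chaperone of the ER. It carried the strongest peak of the 8 genes (chrX:6092592-6092816 on ce11, intergenic). The summit at 6092707 lay 583 bp upstream of hsp-3 and 593 bp upstream of C15H9.5, which is transcribed away from it on the other strand. The position therefore does not assign the peak to either gene. Its signal, the value the submitters' peak caller gave each peak, was 151 in the IDR list (median of the 1400 peaks 39.4, lowest 27.8), which ranked 28. In the relaxed lists, which hold peaks together with background, the signal was 105 in replicate 1 (rank 29 of 30000) and 49.0 in replicate 2 (rank 39 of 26001). The replicates thus placed this peak about equally high. No scale between the lists is stated, so only the ranks were compared. At 225 bp the interval was also among the 11.4% of IDR peaks narrower than the usual 350 bp. Its whole sequence is shown from RefSeq's WBcel235, the same build as ce11, 5′ to 3′ on the strand of hsp-3 (the minus strand), because it holds 2 matches to WGATAR, the site of GATA factors, in which the first letter is either A or T and the last either A or G. Capitals mark the matches, which read AGATAA on the opposite strand and lie 10 and 41 bp from the summit.

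hsp-3 upstream peak: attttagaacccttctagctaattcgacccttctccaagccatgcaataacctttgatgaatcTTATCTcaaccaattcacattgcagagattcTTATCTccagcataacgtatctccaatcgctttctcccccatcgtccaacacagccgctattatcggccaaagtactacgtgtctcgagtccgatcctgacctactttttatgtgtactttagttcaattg

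A second IDR summit of hsp-3 was weaker and closer to the gene. It lay at 6092151, 27 bp upstream of the annotated 5′ end (chrX:6091976-6092325), with a signal of 29.6 (rank 1260), not far above the lowest of the list. The replicates placed it unevenly, with a signal of 10.5 and rank 4153 in replicate 1 and a signal of 17.4 and rank 495 in replicate 2. Within 100 bp of this summit there was no WGATAR, but there was 1 match to HGATAR, the looser form that also allows C as the first letter, found at 76.3% of IDR summits. G and C made up 62.7% of the bases, against 44.8% at the upstream summit and a median of 41.3% over IDR summits. The window did hold 1 match each to CGTCTC, to GAGAGA and to AGACGCAG, found at 19.2%, 34.4% and 8.93% of all IDR summits. It also held 2 matches to CCACG and 1 to TGACGT, core letters of the elements through which the unfolded protein response acts on chaperone genes, found at 16.0% and 8.79% of IDR summits. The part of this window outside annotated exons (chrX:6092125-6092251, minus strand) is shown for contrast with the upstream peak. Capitals mark CCACG and an overlapping pair of matches, to AGACGCAG on the opposite strand and to CGTCTC on the strand shown. The other CCACG and the TGACGT lay in the part not shown.

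hsp-3 proximal peak: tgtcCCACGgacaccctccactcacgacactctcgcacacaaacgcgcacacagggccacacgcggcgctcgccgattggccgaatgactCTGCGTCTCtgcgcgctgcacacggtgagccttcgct

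The paralogue hsp-4 (WBGene00002008, chrII:7350112-7352645, minus strand), the inducible BiP of the worm, had no IDR summit in its window. Its strongest pooled summit lay 259 bp upstream (7352904, intergenic), with a signal of 17.4, a rank of 3091 and a −log10 q-value of 2.18. In replicate 1 the overlapping peak had a signal of 12.3 and rank 3034, and in replicate 2 a signal of 4.49 and rank 8903. The best peak of replicate 2 at hsp-4 lay elsewhere, 260 bp inside the gene in coding sequence, with a signal of 7.15 and rank 3283. So hsp-3 and hsp-4, which encode closely related proteins, stood far apart in rank in every list. Reads from near-identical stretches of the pair could be split or dropped in coding sequence, where 3 pooled summits of hsp-3 and 1 of hsp-4 lay, and this was not tested. The upstream summit of hsp-4 had 1 WGATAR, 4 bp from the summit, shown in capitals on the minus strand (chrII:7352804-7353004).

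hsp-4 upstream peak: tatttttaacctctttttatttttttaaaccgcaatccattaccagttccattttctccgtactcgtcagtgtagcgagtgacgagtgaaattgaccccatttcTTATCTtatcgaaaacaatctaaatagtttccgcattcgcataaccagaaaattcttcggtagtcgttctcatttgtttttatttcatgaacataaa

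The gene pdi-2 (WBGene00003963, chrX:4524155-4526536, plus strand) encodes a protein disulfide isomerase that is also the partner of the α subunits in prolyl 4-hydroxylase, and so belongs to folding and to hydroxylation. Its IDR summit (chrX:4522210-4522559, summit 4522385, intergenic) had a signal of 68.6 and rank 207. The signal was 41.9 in replicate 1 (rank 249) and 21.3 in replicate 2 (rank 320), so the replicates again placed it alike. The summit lay 1770 bp upstream of pdi-2 but only 241 bp upstream of C07A12.7, on the opposite strand. If summits in the gene windows were given only to the gene with the nearest annotated 5′ end, the peak would count for C07A12.7. Then hsp-3 would be the 1 member left, where 4.77% of all genes had a summit by that assignment. The IDR peak upstream of bli-3 described below lies outside its window and is not counted here. Nearer to pdi-2, the pooled summits 579 and 185 bp upstream had signals of 11.4 and 7.87, and the strongest inside the gene, in coding sequence at 1700 bp, had 18.3 (rank 2840). The stretch from 100 bp before to 100 bp after the IDR summit (chrX:4522285-4522485, plus strand) held 2 copies of AGATAA that share a base, 66 and 71 bp from the summit, shown in capitals.

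pdi-2 upstream peak: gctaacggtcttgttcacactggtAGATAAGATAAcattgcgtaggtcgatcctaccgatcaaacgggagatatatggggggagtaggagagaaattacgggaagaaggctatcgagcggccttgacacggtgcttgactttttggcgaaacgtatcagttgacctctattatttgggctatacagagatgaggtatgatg

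Of the α subunits, dpy-18 (WBGene00001077, chrIII:11372886-11377980, minus strand) came closest to the threshold. Its strongest pooled summit lay near the far end of the window, 2840 bp upstream (11380820, intergenic), with a signal of 26.2 and rank 1573, where the IDR list ended at 27.8. This summit was nearer to another gene, at 1402 bp upstream of subs-4, the neighbour on the opposite strand. The replicates gave this peak a signal of 13.4 (rank 2564) and 8.68 (rank 2140), so neither placed it among its highest 1400. The other 3 pooled summits at dpy-18 had signals of 6.40 or less. Just beyond the window, 4070 bp upstream of dpy-18, an IDR peak with a signal of 38.97 (rank 725) lay 172 bp upstream of subs-4. It ranked 1383 in replicate 1 and 489 in replicate 2 and had no WGATAR. The summit inside the window had 1 WGATAR, 32 bp away, in capitals on the minus strand (chrIII:11380720-11380920).

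dpy-18 upstream peak: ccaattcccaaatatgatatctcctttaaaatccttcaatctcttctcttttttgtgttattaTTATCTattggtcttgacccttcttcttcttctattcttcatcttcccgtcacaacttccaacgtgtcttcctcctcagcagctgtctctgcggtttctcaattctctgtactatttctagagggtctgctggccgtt

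The other α subunit gene, phy-2 (WBGene00004025, chrIV:12211097-12215987, minus strand), had 10 pooled summits but none above a signal of 18.05 (rank 2907). That one lay in an intron, 3364 bp inside the gene, with rank 1963 in replicate 1 and, for an overlapping peak with a summit 200 bp away, rank 10864 in replicate 2. Replicate 1 was strongest 810 bp upstream of phy-2 (signal 17.2, rank 1623), where the overlapping peak of replicate 2 ranked 24430. Replicate 2 was strongest 1246 bp upstream (signal 7.73, rank 2762), where that of replicate 1 ranked 23811. The replicates thus did not share a leading summit at phy-2.

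The gene dpy-11 (WBGene00001073, chrV:6511583-6515240, minus strand) encodes a membrane-bound thioredoxin-like protein of the epidermis that is needed for body shape. Its strongest pooled summit (6515261, signal 15.8, rank 3740) lay 21 bp upstream of the annotated 5′ end, in the short gap to mdh-1 on the same strand. Replicate 2 had a peak there, with its summit 43 bp upstream and a signal of 11.6 (rank 1156), within its highest 1400. The annotation places that summit in the 3′ UTR of mdh-1. Replicate 1 ranked its peak there 25941 (signal 3.62), near the end of its list. Its own best summit at dpy-11 was 1877 bp upstream (signal 13.3, rank 2580), where replicate 2 had no overlapping peak. That summit was only 591 bp upstream of the 5′ end of mdh-1, and the mdh-1 gene lies between it and dpy-11. Another peak of replicate 2, 1702 bp inside the gene in an intron, ranked 1539.

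Within the gene windows, the members for the last steps, bli-4 and bli-3, had the weakest peaks. The wider lists described below did not fall step by step in this way. Their median strongest pooled signals were 21.8 for ER folding, 7.42 for hydroxylases, 8.96 for cleavage and 15.01 for crosslinking and oxidation. For bli-4 (WBGene00000254, chrI:6342224-6356680, plus strand), which encodes a proprotein convertase that cleaves collagen precursors, the strongest pooled summit lay 2692 bp upstream (signal 10.9, rank 7952). The replicates ranked the overlapping peaks 16448 and 25498. Replicate 2 had its best peak 1061 bp upstream (signal 6.49, rank 4073). For bli-3 (WBGene00000253, chrI:145968-154855, minus strand), the dual oxidase whose peroxide is used to crosslink cuticle proteins, the window held no summit of the pool or of replicate 1, and 2 of replicate 2, with signals of 4.52 and 2.08 (ranks 8776 and 25289). Of all genes, 73.0% had at least 1 pooled summit in the window. Among the 1259 genes with a window as long as that of bli-3 or longer, 56 had none. An IDR peak of 32.5 (rank 1037, no WGATAR) lay 4497 bp upstream of bli-3, outside the window, and the 5′ end of bli-3 was the nearest to it. It ranked 1380 in replicate 1 and 743 in replicate 2. Its signal was above the strongest pooled signal in the window of dpy-18 (26.2), so the low place of bli-3 held for the gene window only.

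**Figure D2:**
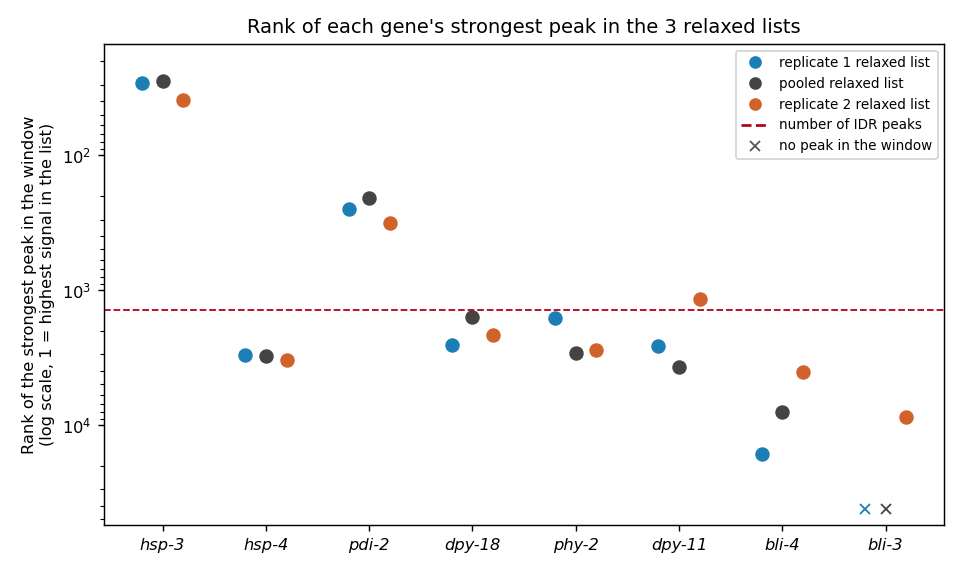
Rank of the strongest peak in each gene's window (log scale, best rank at the top) in the relaxed lists of replicate 1, the pool and replicate 2, with the number of IDR peaks as a dashed line and crosses for no peak. In all 3 lists hsp-3 and pdi-2 lie above the line, dpy-11 does so in replicate 2 only, and bli-3 has no peak in the pool or in replicate 1.

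The order of the members by pooled signal in the gene window was hsp-3 (151), pdi-2 (68.6), dpy-18 (26.2), phy-2 (18.05), hsp-4 (17.4), dpy-11 (15.8) and bli-4 (10.9). Last came bli-3, which had no pooled summit in its window. Over all 14584 genes with a pooled summit in the window, the median of this strongest signal was 10.4, and all 7 members with a summit lay above it. The signal of hsp-3 was above that of 99.9% of these genes, that of pdi-2 above 98.7% and that of dpy-18 above 89.0%, while bli-4 was at 53.3%. Among the summits behind these percentages, those of pdi-2 and dpy-18 were nearer to the 5′ end of another gene. These comparisons were not adjusted for window length. Every member's window was longer than the median of 5027 bp over all genes, and a longer window has more room for a strong peak. From dpy-18 to dpy-11 the replicates did not keep this order: of these 4 genes phy-2 had the highest signal in replicate 1 (17.2) and dpy-11 in replicate 2 (11.6). Among the 1400 highest peaks of replicate 1, hsp-3 and pdi-2 had a summit, where 7.15% of genes did. Among those of replicate 2, hsp-3, pdi-2 and dpy-11 did, where 7.25% of genes did.

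At the strongest pooled summit, 7 of 8 members had an overlapping relaxed peak in both replicates, where 29.6% of all genes did. The member without one, bli-3, had no pooled summit, and among genes with a pooled summit the share was 40.5%. Of all pooled peaks, 30.5% were overlapped in both replicates. An overlap of 1 bp sufficed, and the pool holds both replicates. The overlapping peaks could be weak, as at bli-4, where they ranked 16448 and 25498. For hsp-3, hsp-4, pdi-2, dpy-18 and dpy-11 the summits of both replicates also lay within 100 bp of the strongest pooled summit. The share of all genes by this measure was not computed, so this count has no background to be judged against. Of the 8 genes, hsp-3 and pdi-2 had a summit in the window among the highest 1400 peaks of both replicates, where 4.2% of all genes did.

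A WGATAR lay within 100 bp of 2 of the 3 IDR summits of the members, where 65.2% of all IDR summits had one. Among the strongest pooled summits of the 7 genes, 6 had one, phy-2 being the exception. This share was 42.6% over all genes' strongest pooled summits and 40.4% over all pooled summits. At hsp-3, pdi-2, dpy-18 and hsp-4 the form was AGATAA, which was found at 40.9% of IDR summits and 15.9% of pooled summits. For AGATAA the share over all genes' strongest pooled summits, the like set, was not computed. At least 2 copies of AGATAA, as at hsp-3 and pdi-2, were found at 9.71% of IDR summits. At dpy-11 the form was AGATAG and at bli-4 TGATAG. Of all 44 pooled summits in the members' windows, 17 had a WGATAR. These matches describe the letters and do not show that ELT-1 contacts them.

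**Figure D3:**
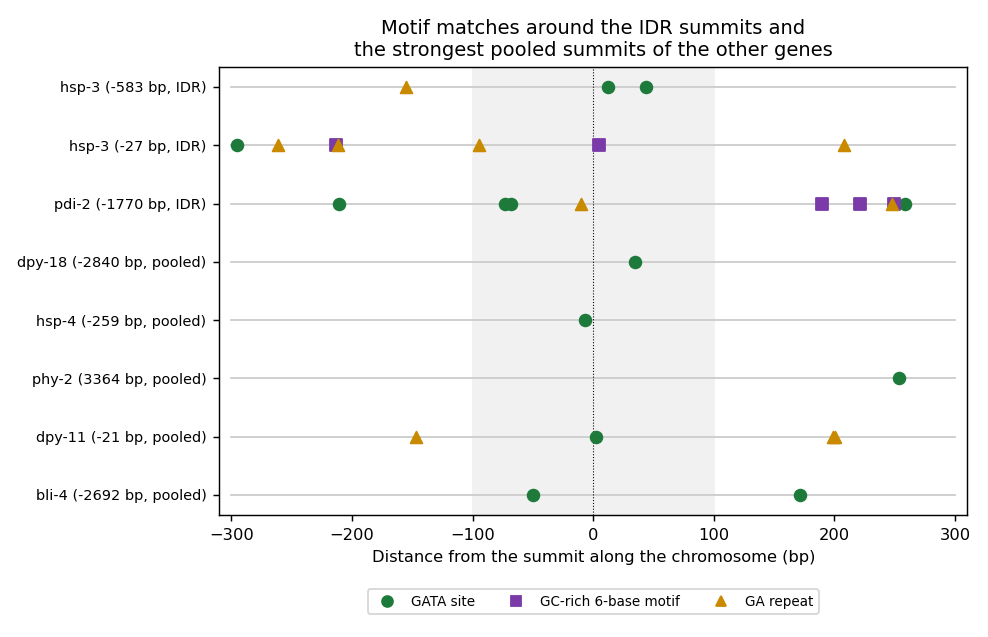
Matches to WGATAR (green circles), CGTCTC (purple squares) and GAGAGA (triangles) by distance from the summit along the chromosome (bp), for the 3 IDR summits and the strongest pooled summit of the 5 other genes that had one, with 100 bp to each side shaded. The proximal summit of hsp-3 and the summit of phy-2 have no green circle in the shaded part.

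The other genes of the pathway were taken as 5 lists with 41 genes, 7 of which had an IDR summit, most of them in the list for ER folding. There, 6 of 15 genes had one (40%, against 7.2% of all genes), compared with 0 of 3 hydroxylases, 0 of 5 genes of crosslinking and oxidation, 0 of 10 of cleavage and its inhibitors, and 1 of 8 of secretion and the unfolded protein response. No test was made of these counts, and the lists were drawn up with earlier results of these data known. The strongest peak of the ER list was at enpl-1, the worm counterpart of the HSP90 chaperone GRP94 (signal 114, rank 62). It ranked 81 in replicate 1 and 40 in replicate 2. Next came dnj-20, for a J-domain partner of BiP (68.4), and crt-1, for calreticulin, a chaperone of glycoproteins (59.0). The prolyl isomerase genes fkb-5 and fkb-4 had 46.3 and 40.5, and dnj-7, for another J-domain protein, had 35.0. The genes fkb-4 and dnj-7 were named after their values were seen, as was fkb-3, which at 27.6 fell just under the lowest IDR signal.

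For dnj-7 and fkb-4 the replicates were uneven. The peak of dnj-7 ranked 342 in replicate 1 and had no overlapping peak in replicate 2. That of fkb-4 ranked 2143 and 386, while crt-1 (252 and 477), dnj-20 (305 and 61) and fkb-5 (378 and 840) were within the highest 1400 of both. Of the 6 genes, dnj-7 lies on X, as hsp-3 and pdi-2 do, and the others on autosomes. A WGATAR lay within 100 bp of the strongest IDR summit of 2 of the 6, enpl-1 and dnj-7, with 2 copies of AGATAA at each. Over all 7 IDR summits of the list the count was 3, where 65.2% of all IDR summits had one. The summits of crt-1, fkb-4, fkb-5 and the stronger one of dnj-20 had none. Positions also varied, with 3 of the 7 summits of the list upstream of the annotated 5′ end and 4 inside the gene. The enpl-1 summit was in an intron 1093 bp from the first 5′ end and 341 bp upstream of an inner one, and that of fkb-4 was in coding sequence. The enpl-1 interval (chrIV:11120277-11120474, plus strand) is shown because its AGATAA pair, in capitals, can be set beside that of hsp-3. In enpl-1 the copies are on opposite strands, 27 and 40 bp from the summit.

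enpl-1 intronic peak: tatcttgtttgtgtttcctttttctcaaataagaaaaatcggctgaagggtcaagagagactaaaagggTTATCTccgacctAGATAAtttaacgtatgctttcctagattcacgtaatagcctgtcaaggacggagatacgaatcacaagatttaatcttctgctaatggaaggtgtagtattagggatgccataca

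In the remaining lists the strongest pooled signals, except that of tmem-39, lay under the lowest IDR signal of 27.8. The hydroxylase genes phy-3, phy-4 and let-268, which encodes lysyl hydroxylase, all named after their values were seen, had strongest pooled signals of 7.41 to 11.6, and the medians were 15.01 for crosslinking and oxidation, 8.96 for cleavage and 15.3 for secretion and the unfolded protein response. The median of the ER list was 21.8, and that of the 26 genes outside it was 10.0, near the 10.4 of all genes. Taken singly, the lists for crosslinking and for secretion lay above this 10.4, and those for hydroxylases (7.42) and cleavage below it. The single IDR summit outside the ER list was in the window of tmem-39 (32.8), for an ER membrane protein of collagen secretion. It lay 1050 bp upstream of tmem-39 and 255 bp upstream of rpl-24.1, a ribosomal protein gene, so it was nearer to another gene. In these lists ire-1, the sensor of the unfolded protein response, reached 26.8, and xbp-1, the transcription factor it activates, 12.7, both named after their values were seen. With a window from 5000 bp upstream, xbp-1 had an IDR summit, where 9.22% of all genes did.

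**Figure D4:**
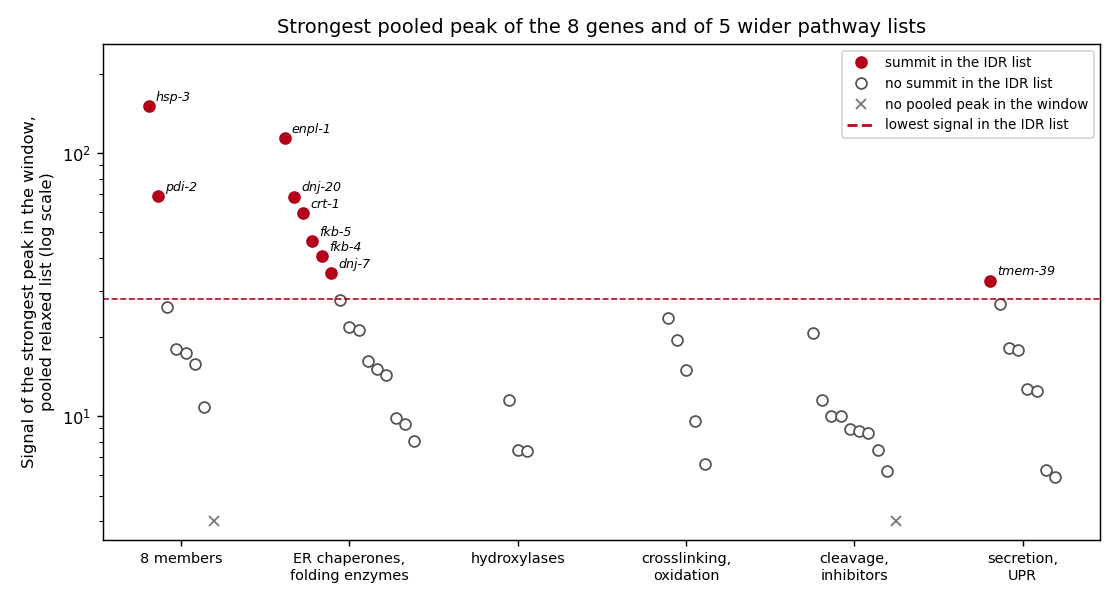
Signal of the strongest pooled relaxed peak in the window of each gene (log scale) for the 8 genes and 5 lists of other pathway genes, with filled points for genes with an IDR summit and a dashed line at the lowest IDR signal, 27.8. Filled points are found among the 8 genes (2), the ER folding list (6) and the secretion list (1), and the other lists have none.

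The strongest peak of elt-1, the gene of the tagged factor, ranked 1 in the IDR list and in both replicates. The genes whose strongest IDR peak had ranks most like those of hsp-3 in both replicates were F09A5.3 (ranks 30 and 41), ptr-23 (25 and 45) and F53A10.2 (37 and 36). The summed difference in log10 rank over the 2 replicates was 0.036, 0.13 and 0.14.

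The extent of the window decided whether pdi-2 was counted. From 1000 bp upstream to 200 bp downstream of any 5′ end, hsp-3 was the only member with an IDR summit, and 3.55% of all genes had one. From 5000 bp upstream to the 3′ end, hsp-3, pdi-2, dpy-18 and bli-3 had one, where 9.22% of genes did, through the peaks described above near subs-4 and upstream of bli-3.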

How the data were processed

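The deposited narrowPeak lists on build ce11 were used without change. Per the file lists that accompany the samples, the authors called a relaxed list from each replicate (30000 and 26001 peaks) and from the pool (30000 peaks), each made from alignments and a further file common to all, and derived the 1400 IDR-thresholded peaks from these. The deposited signal is each peak's own value, and the deposited −log10 q-value was read in the relaxed lists. The aligner, the IDR threshold and the peak caller with its version are not given in the sources used here. Read depth is unknown. The ce10 lists were not used here.

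Summits were set against WBcel235 sequence (RefSeq) and Ensembl release 115 genes, and 0 peaks ran past a chromosome end. Rank 1 is the highest signal in a list. Support by a replicate means a relaxed peak that overlaps by at least 1 bp, and a summit could count for several genes. Motifs were searched on both strands from 100 bp before to 100 bp after each summit. Coordinates are 1-based. The procedures were tested on simulated data. No p-values were computed, since 1 group of 2 replicates allows no test between conditions.

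The 8 members, the 5 wider lists and the motifs were chosen with earlier results of these data known. Named genes were the members, neighbours that share their IDR summits, up to 4 genes with an IDR summit per list by signal, and the 3 genes most like the strongest member in rank. Outside this rule, elt-1, subs-4, mdh-1, rpl-24.1, phy-3, phy-4, let-268, fkb-3, fkb-4, dnj-7, ire-1 and xbp-1 were named after their values were seen. Other windows, gene assignments, motif forms and lists were tried. Results without 1 replicate used the 1400 highest peaks of the other in place of the IDR list. Python 3.11.15, numpy 2.4.6, pandas 2.3.3 and matplotlib 3.10.9 were used.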

Additional observations from a re-analysis of the deposited data

How the results depend on the processing

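The number of members with an IDR summit was 2 in the gene window. It was 1 with the window of 1000 bp upstream to 200 bp downstream of a 5′ end and 4 with 5000 bp upstream. With the nearest 5′ end only, among summits in the gene window, it was 1. It stayed at 2 with 2000 bp upstream, with overlap in place of summits and with the 50% of IDR peaks of highest signal. For these settings the share over all genes was not computed, so the unchanged count has no background to be judged against. Without a replicate it was 2 to 3, the third being dpy-11 in replicate 2 alone. The count of members supported by both replicates was 7, or 5 with summits within 100 bp and 2 among the highest 1400 peaks of both. For the 100 bp measure no share over all genes was computed. IDR summits with WGATAR numbered 2 of 3, or 3 of 3 with HGATAR and 1 of 3 within 50 bp, where pdi-2 had no match, and 2 to 3 without a replicate (2 of 2 in replicate 1 alone, 3 of 4 in replicate 2 alone). In the wider lists the count was 7 genes and ran from 5 to 9 over all alternatives. It was 9 without replicate 1, where 7.25% of all genes had a summit, and 8 without replicate 2, where 7.15% did. The genes changed as well as the count. Without replicate 1 dnj-7 dropped out, and without replicate 2 fkb-4 and tmem-39 did, while other genes joined in each case. No paired analysis was possible because there is 1 group. The signals of hsp-3 and pdi-2 were the same in every window that held their peaks. That was fixed in advance, since the signal is a deposited value of the peak. Precision from depth could not be given, since read depth is unknown.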
